A study of Mus musculus with 6 samples.

Results

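The enzymes described here act on the Notch receptor itself: Pofut1 and the fringes Lfng, Mfng and Rfng attach sugars to it, and Adam10, Adam17 and the gamma-secretase subunits Psen2, Ncstn and Aph1a cut it. Genes were taken by name from the platform's annotation, which gave 9 genes with 22 probe sets among 18194 genes and 34958 probe sets that carry 1 gene symbol. Each probe set was read on all 6 arrays, and the one with the highest mean log2 value stood for its gene. RNA came from bone marrow sorted as lineage negative, cKit+ and Sca1+ (LSK), the fraction that contains blood stem cells and multipotent progenitors, of mice aged 6 weeks. Every animal, in both groups, had the genotype Hes1 GFP/WT, so the comparison cells carried the reporter allele too. The groups were Hes1-GFP positive and Hes1-GFP negative LSK cells, with 3 arrays each, numbered by replicate. Array 1 was from a female and arrays 2 and 3 from males in either group. The labels name no treatment and do not say whether animals were pooled or how many gave RNA to the arrays. The p-values therefore reflect how far these arrays differ, which could be technical in part.

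Notch is made as a single chain that needs sugars on its extracellular repeats and several cuts to signal. In the secretory pathway O-fucose is added by Pofut1, and fringes extend it with N-acetylglucosamine, which alters how the receptor answers Delta-like and Jagged ligands. After ligand binding an ADAM metalloprotease removes the ectodomain, and gamma-secretase, a membrane complex with a presenilin as its catalytic subunit, then frees the intracellular domain, which enters the nucleus and joins Rbpj. In marrow progenitors Notch signalling is best known for directing cells to the T lineage, and Hes1 is one of its transcriptional targets.

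Array medians of the deposited intensities lay between 74.0 and 78.5, and pairwise correlations between arrays over the genes lay between 0.934 and 0.961. Of the gate's genes, the stem cell factor receptor Kit lay between 9.69 and 10.72 (log2 intensity) on the 6 arrays, and Ly6a, which encodes Sca1, was not analysed here. Of 7 genes of the lineages removed by sorting 4 were measured. The integrin Itgam lay between 5.21 and 7.65, the T cell gene Cd3e between 5.38 and 5.98, Cd8a between 6.44 and 6.93, and Cd4 between 8.23 and 9.92, well above the guides to background given next. Y-linked genes in female arrays reached 4.69 and Xist in male arrays 5.59, which serve as guides to background. Hes1, whose reporter divided the cells, gave 6.78, 6.79 and 7.10 on GFP-negative arrays 1, 2 and 3 and 7.36, 7.09 and 7.84 on GFP-positive arrays 1, 2 and 3. As a log2 fold change, GFP-positive minus GFP-negative, this was 0.54 ± 0.24 (SE, n = 3 per group; limma adjusted p = 0.78).

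None of the 9 enzymes passed the test. By limma 0 of 9 had an adjusted p under 0.05, beside 0 of 18194 genes (0%), and their adjusted p-values lay between 0.721 and 0.992. At an unadjusted p under 0.05 there was 1 member, Mfng, which was lower in GFP-positive cells, where 3.38% of all genes were lower, 3.33% higher and 6.71% either by the same measure. Mfng was also the single member whose groups did not overlap, against 5.51% of all genes with every GFP-positive array below the GFP-negative ones, 5.89% with every one above and 11.4% with either. Log2 fold changes were negative for 6 members and positive for 3, with a median of -0.17 beside 0.01 over all genes, and 48.7% of all genes were negative. Every member was above the 40th percentile of mean level, and 8 were above the 60th, Psen2 being the exception. In sorted populations measured in bulk, fewer cells of a type and less RNA per cell cannot be told apart.

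**Figure D1:**
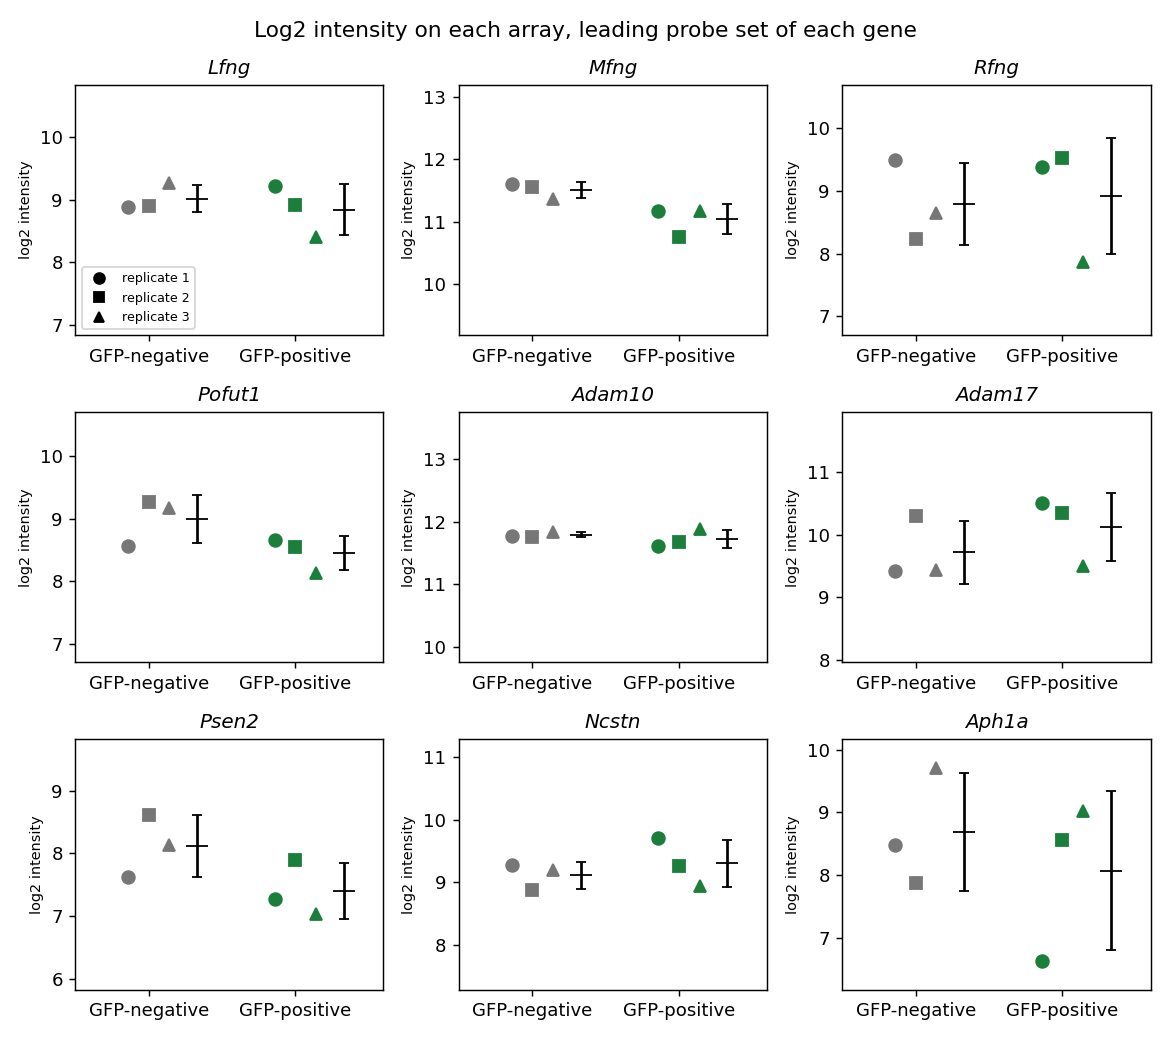
Log2 intensity of the 9 enzymes on each array (y axis, the same span of log2 units in every panel) for GFP-negative (grey) and GFP-positive (green) cells, with marker shapes for replicate numbers and a bar for the mean ± SD of 3 arrays. The Mfng groups do not overlap, the other 8 genes have overlapping groups, and Aph1a has the widest spread, from 6.63 to 9.71.

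Pofut1 starts the glycan, and Notch receptors need it for normal ligand binding. The probe set that stands for it had 8.56, 9.27 and 9.17 on GFP-negative arrays 1, 2 and 3 and 8.66, 8.55 and 8.14 on GFP-positive arrays 1, 2 and 3. GFP-negative replicate 1 lay among the GFP-positive arrays, and the other two GFP-negative arrays lay above all of them. The groups differed by -0.55 ± 0.26 on the log2 scale (SE; limma adjusted p = 0.808), which is 0.684-fold with a 95% confidence interval from 0.442 to 1.06. All 3 Pofut1 probe sets had a lower GFP-positive mean, with log2 fold changes from -0.55 to -0.28, and none had groups that do not overlap. When the 3 probe sets were averaged, the groups separated (log2 fold change -0.46, unadjusted p = 0.046, limma adjusted p = 0.685).

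Mfng, the manic fringe, is one of the 3 glycosyltransferases that lengthen O-fucose. It was measured by 1 probe set. It read 11.61, 11.56 and 11.37 on GFP-negative arrays 1, 2 and 3 and 11.18, 10.76 and 11.18 on GFP-positive arrays 1, 2 and 3. Every GFP-positive array lay below every GFP-negative array, with a gap of 0.19 between the nearest arrays, and GFP-positive replicate 2 was the lowest. This was a log2 fold change of -0.48 ± 0.18 (SE; unadjusted p = 0.040; limma adjusted p = 0.721), or 0.719-fold with a 95% interval from 0.528 to 0.979. It kept its sign in 17 of 17 alternative analyses, with log2 fold changes from -0.55 to -0.34, and had an unadjusted p under 0.05 in 8 of them. Over the 6 arrays the genes with the pattern most like that of Mfng were Phf23, Gys1, the muscle glycogen synthase, and the phosphatase Ptp4a2, at Pearson r = 0.996, 0.991 and 0.987. These were picked from 18193 genes and the arrays are the same 6, so the values describe likeness only.

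Lfng, the lunatic fringe, gave 8.88, 8.90 and 9.27 on GFP-negative arrays 1, 2 and 3 and 9.22, 8.91 and 8.40 on GFP-positive arrays 1, 2 and 3. The groups overlapped, and GFP-positive replicate 3 was the lowest array. That gave a log2 fold change of -0.17 ± 0.26 (SE; limma adjusted p = 0.974), with a 95% interval from 0.575-fold to 1.37-fold, and its other probe set was at -0.33. Without GFP-positive replicate 3 the value became 0.047. Lfng is a known Notch target in the developing somites, so its promoter is shown for the binding letters of the pathway's nuclear factors. The window holds the 250 bases before the RefSeq start (GRCm38.p6, chr5:140607091-140607340, plus strand). Capitals mark TGGGAA or its reverse complement TTCCCA, the core recognised by Rbpj. They also mark CACGCG or its reverse complement CGCGTG, a class of site bound by Hes proteins.
Lfng: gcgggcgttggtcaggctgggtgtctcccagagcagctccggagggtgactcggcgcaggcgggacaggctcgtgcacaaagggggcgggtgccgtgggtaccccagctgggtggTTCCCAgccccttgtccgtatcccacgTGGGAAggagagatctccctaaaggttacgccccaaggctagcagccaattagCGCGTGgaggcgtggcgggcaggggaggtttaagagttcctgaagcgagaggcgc
The matches to the Rbpj core began 135 and 108 bases before the start, on opposite strands and without overlap, and the Hes site began 55 bases before it. Among 32851 promoter windows of that length 21.6% held the Rbpj core on either strand and 7.62% held the Hes site. The RefSeq table gave 9 windows for 8 of the enzymes, Mfng being without an entry. Of these windows 2 held the Rbpj core, those of Lfng and of 1 of the 2 Psen2 starts, and 2 held the Hes site, those of Lfng and Rfng. Such matches describe the letters in a window and do not show binding.

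Rfng, the radical fringe, was the most uneven of the 3 fringes between arrays of one group. It had 9.50, 8.23 and 8.64 on GFP-negative arrays 1, 2 and 3 and 9.38, 9.53 and 7.86 on GFP-positive arrays 1, 2 and 3. GFP-positive replicates 1 and 2 were level with GFP-negative replicate 1, and GFP-positive replicate 3 was the lowest array. Between groups Rfng differed by 0.13 ± 0.55 (log2, SE; limma adjusted p = 0.992), so the 95% interval ran from 0.433-fold to 2.77-fold. Its sign turned without GFP-negative replicate 2 (-0.15), GFP-positive replicate 1 (-0.10) or GFP-positive replicate 2 (-0.17), and with array weights (-0.21). The other Rfng probe set was at 0.46 ± 0.27, with GFP-positive replicates 1 and 2 at 6.87 and 6.84 above the GFP-negative arrays and replicate 3 at 6.01 just below them.

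Adam10, the protease that makes the ligand-dependent cut in Notch1, was the steadiest member. It read 11.78, 11.76 and 11.84 on GFP-negative arrays 1, 2 and 3 and 11.61, 11.67 and 11.89 on GFP-positive arrays 1, 2 and 3. The GFP-positive arrays lay on both sides of the GFP-negative ones. With a log2 fold change of -0.07 ± 0.15 (SE; limma adjusted p = 0.981), the 95% interval ran from 0.742-fold to 1.23-fold, the narrowest of the 9. The other 3 probe sets were at 0.38, 0.44 and -0.49, and when the 4 were averaged the value was 0.064, so the sign was not settled. The probe set at -0.49 gave 4.46, 4.07 and 6.84 on GFP-negative arrays 1, 2 and 3 and 4.17, 4.19 and 5.54 on GFP-positive arrays 1, 2 and 3. Both replicate 3 arrays were high there, and only that of the GFP-negative group lay above the higher guide to background of 5.59.

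Adam17, which sheds tumour necrosis factor and many receptors and can also cut Notch, had 9.42, 10.30 and 9.44 on GFP-negative arrays 1, 2 and 3 and 10.50, 10.36 and 9.50 on GFP-positive arrays 1, 2 and 3. The groups overlapped, and 1 GFP-positive and 2 GFP-negative arrays made up the lower values. On the log2 scale the groups differed by 0.40 ± 0.37 (SE; limma adjusted p = 0.962), with a 95% interval from 0.702-fold to 2.49-fold. Of the other probe sets 1 was at 0.56 and 1 at -0.10. Adam17 kept a positive sign in 17 of 17 alternatives, from 0.06 to 0.71, including that with its probe sets averaged (0.29).

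Psen2, a presenilin and so a catalytic subunit of gamma-secretase, had the largest log2 fold change by size among the 9. Its leading probe set read 7.63, 8.62 and 8.13 on GFP-negative arrays 1, 2 and 3 and 7.27, 7.89 and 7.03 on GFP-positive arrays 1, 2 and 3. GFP-positive replicate 2 lay above GFP-negative replicate 1, so the groups overlapped, while within each replicate number the GFP-positive array was the lower. At -0.73 ± 0.34 on the log2 scale (SE; unadjusted p = 0.076; limma adjusted p = 0.804), Psen2 was 0.604-fold in GFP-positive cells, with a 95% interval from 0.340 to 1.07. It was negative in 16 of 16 alternatives, from -0.98 to -0.35, and had an unadjusted p under 0.05 in 3 of them. The other Psen2 probe set did not show this difference: it lay between 5.96 and 6.54 on the 6 arrays, near the higher guide to background, with a log2 fold change of 0.02 ± 0.20.

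Ncstn encodes nicastrin, the gamma-secretase subunit that admits the shortened substrate. It gave 9.28, 8.87 and 9.19 on GFP-negative arrays 1, 2 and 3 and 9.70, 9.27 and 8.94 on GFP-positive arrays 1, 2 and 3. GFP-positive replicate 1 was the highest array and the remaining 5 overlapped. Ncstn differed by 0.19 ± 0.24 (log2, SE; limma adjusted p = 0.971), with a 95% interval from 0.754-fold to 1.72-fold, and it was -0.010 without GFP-positive replicate 1. The other Ncstn probe set was at -0.02 ± 0.53.

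Aph1a, a scaffold subunit of the complex, varied most within groups. It had 8.48, 7.87 and 9.71 on GFP-negative arrays 1, 2 and 3 and 6.63, 8.56 and 9.02 on GFP-positive arrays 1, 2 and 3. GFP-positive replicate 1 lay below all other arrays, and GFP-negative replicate 3 was the highest. Aph1a differed by -0.62 ± 0.76 (log2, SE; limma adjusted p = 0.97), with a 95% interval from 0.181-fold to 2.34-fold, and without GFP-positive replicate 1 it was 0.10. The other 2 probe sets were at 0.08 and -0.56, so the probe sets of Aph1a did not share a sign. In the one at -0.56, GFP-positive replicate 3 read 5.51, under the higher guide to background of 5.59.

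**Figure D2:**
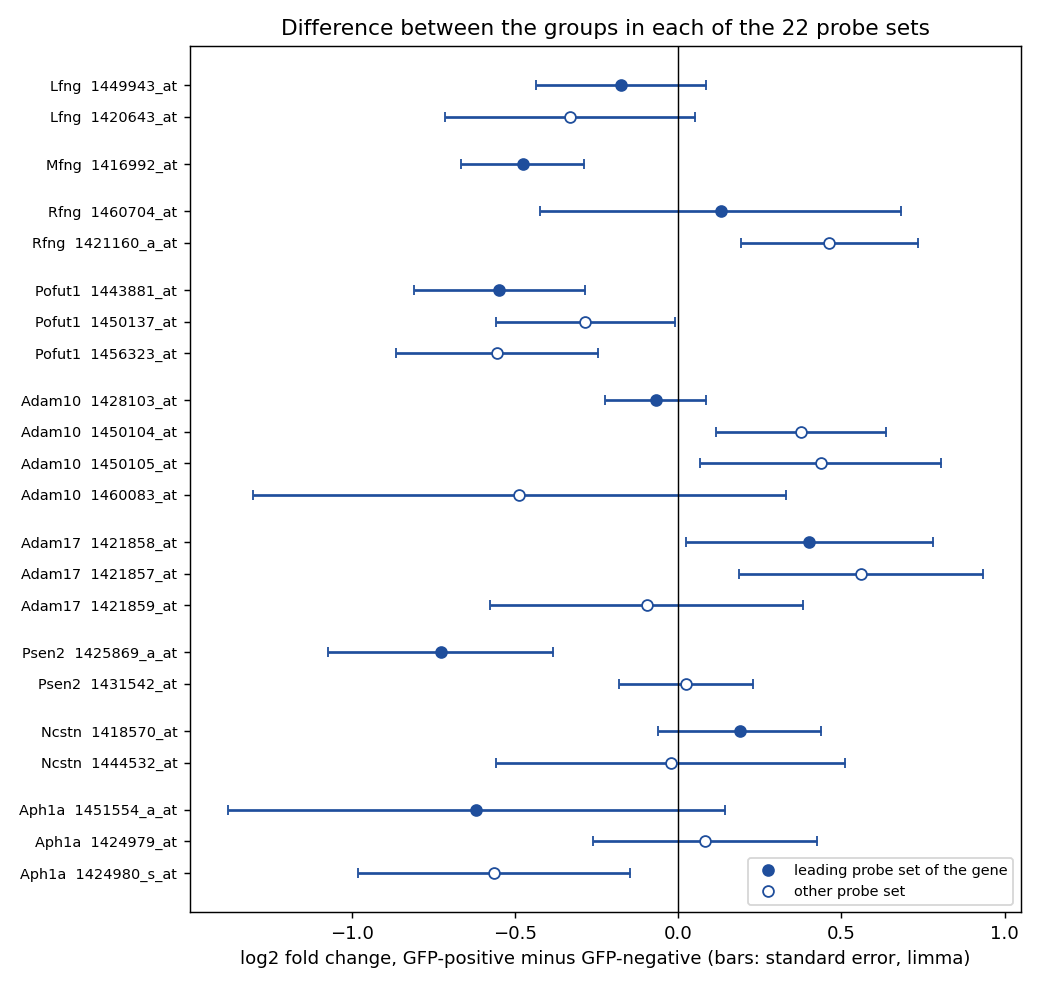
Log2 fold change ± SE (x axis, GFP-positive minus GFP-negative, limma over all probe sets with 1 symbol) of the 22 probe sets of the 9 enzymes (y axis), with filled points for the probe set that stands for its gene. The probe sets of Pofut1 and of Lfng are all negative and those of Rfng all positive, while Adam10, Adam17, Psen2, Ncstn and Aph1a have probe sets of both signs.

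Across all 22 probe sets, 13 had a lower and 9 a higher GFP-positive mean, with a median log2 fold change of -0.08. By limma 0 passed adjustment over the 34958 probe sets (0% of them passed), and 1, that of Mfng, was lower at an unadjusted p under 0.05, where 3.51% of all probe sets were lower and 3.07% higher. It was also the only one of the 22 whose groups did not overlap, against 5.78% of all probe sets with GFP-positive arrays all below and 5.69% with them all above. Of the 8 genes with several probe sets, 3 had 1 sign throughout and 5 had both. Probe sets of a gene can read different transcript ends or isoforms, which the annotation used here does not separate.

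Arrays that share a replicate number also share the sex given in the labels. Within the 3 numbers, Mfng differed by -0.44, -0.80 and -0.19 (log2, GFP-positive minus GFP-negative, numbers 1, 2 and 3) and Psen2 by -0.36, -0.72 and -1.10. These 2 were lower in every pair, as were 13.2% of all genes. Adam17 was higher in every pair, as were 13.8% of all genes, but with 1.09 in the female pair and 0.05 and 0.07 in the male ones. Pofut1 differed by 0.10 in the female pair and by -0.72 and -1.03 in the male pairs. In Aph1a the pairs gave -1.85, 0.68 and -0.69, and in Rfng -0.12, 1.30 and -0.78, with no common direction. A limma test of whether the GFP effect differed between the sexes called 0 of the 9 members (lowest adjusted p = 0.746, for Pofut1), and 0 had an unadjusted p under 0.05. With 1 female array per group, that test has little precision.

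**Figure D3:**
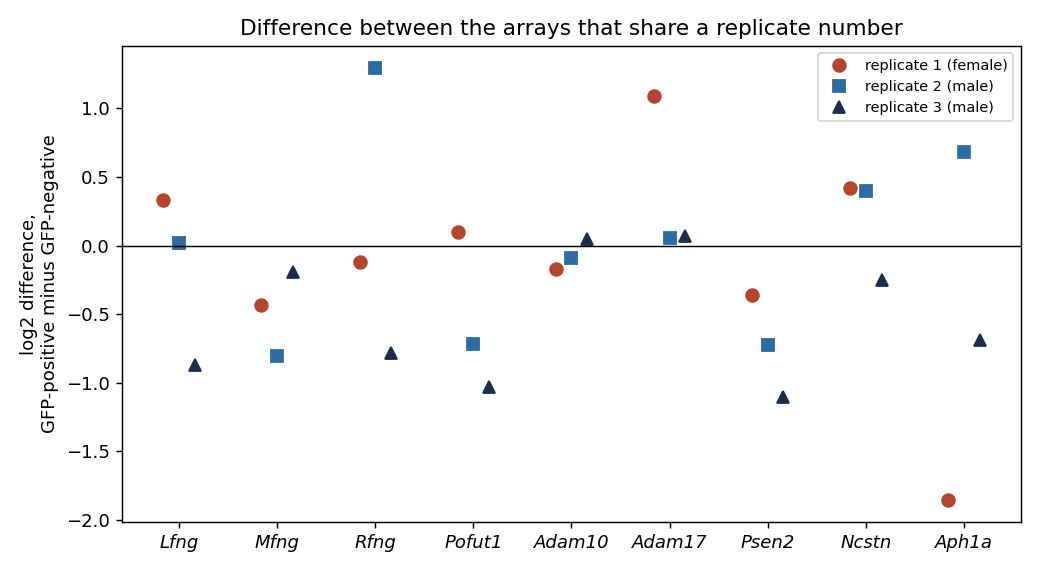
Log2 difference between the GFP-positive and the GFP-negative array of the same replicate number (y axis) for the 9 enzymes (x axis), by replicate number and sex. All 3 differences lie below 0 for Mfng and Psen2 and above 0 for Adam17, whose male pairs are at 0.05 and 0.07.

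Other genes of receptor glycosylation and cleavage were read from the same fit. Of 69 genes listed in 7 groups 67 were measured, and limma called 0 at an adjusted p under 0.05, and at an unadjusted p under 0.05 there were 3 on the lower and 3 on the higher side, where 3.38% and 3.33% of all genes were, 6.71% in all. Their median log2 fold change was 0.05. Of the 67, 4 lay lower in every GFP-positive array and 2 higher, where 5.51% and 5.89% of all genes did. Among 9 other Notch glycosyltransferases 1 was lower and 1 higher at an unadjusted p under 0.05. Poglut3, which adds O-glucose to epidermal growth factor-like repeats, read 8.75, 9.12 and 8.93 on GFP-negative arrays 1, 2 and 3 and 7.31, 7.56 and 7.81 on GFP-positive arrays 1, 2 and 3. Its groups lay far apart compared with the spread inside each, at -1.37 ± 0.19 (SE; unadjusted p = 0.0004; limma adjusted p = 0.227), but it did not pass over all genes. Its relative Poglut2 was at 0.95 ± 0.37 (limma adjusted p = 0.729), while a second Poglut2 probe set was at -0.34. Of 7 genes that supply GDP-fucose and other sugar nucleotides, none had an unadjusted p under 0.05, and Gfus, which makes GDP-fucose, was nearest at -0.58 ± 0.30 (limma adjusted p = 0.855).

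Tetraspanins that carry Adam10 to the cell surface lay in both directions. Tspan5 gave 9.56, 9.64 and 9.16 on GFP-negative arrays 1, 2 and 3 and 7.85, 8.11 and 8.63 on GFP-positive arrays 1, 2 and 3, and these groups did not overlap. The difference was -1.26 ± 0.26 on the log2 scale (SE; limma adjusted p = 0.412), and its second probe set was at -0.55. Tspan33 lay the other way at 1.00 ± 0.39 (limma adjusted p = 0.728), with all 4 of its probe sets positive. Timp3, a secreted inhibitor of Adam17 and Adam10, had 6.71, 6.58 and 5.84 on GFP-negative arrays 1, 2 and 3 and 9.41, 7.85 and 7.38 on GFP-positive arrays 1, 2 and 3. At 1.84 ± 0.56 (limma adjusted p = 0.592) this probe set was higher in every GFP-positive array, and without GFP-positive replicate 1 it was at 1.24. All 4 Timp3 probe sets were positive, but not all had groups that separate. GFP-positive replicate 3 lay among the GFP-negative arrays in 1 of them, at 4.63, and in another, at 4.60. In the list of 17 ADAM partners, convertases and inhibitors, an unadjusted p under 0.05 was found for Tspan5, Tspan33 and Timp3 alone, 2 of them higher.

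Among related proteases none of 10 had an unadjusted p under 0.05. Adam12 had the smallest p (log2 fold change 1.04 ± 0.80, limma adjusted p = 0.957), with 7.83 in GFP-positive replicate 1 and between 4.62 and 5.21 on the other arrays. The remaining gamma-secretase subunits measured, Psenen and Aph1b, were at 0.12 ± 0.23 and 0.08 ± 0.74, while Aph1c was not analysed here. Of 10 receptors and ligands, Notch1, a substrate of the enzymes above, was at -1.01 ± 0.35 (limma adjusted p = 0.665), with overlapping groups. Its second probe set was at -1.17 ± 0.27 (limma adjusted p = 0.496), with groups that did not overlap. In the list of 12 measured nuclear partners and targets, Hes1, whose own reporter divided the cells, had the smallest p.

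**Figure D4:**
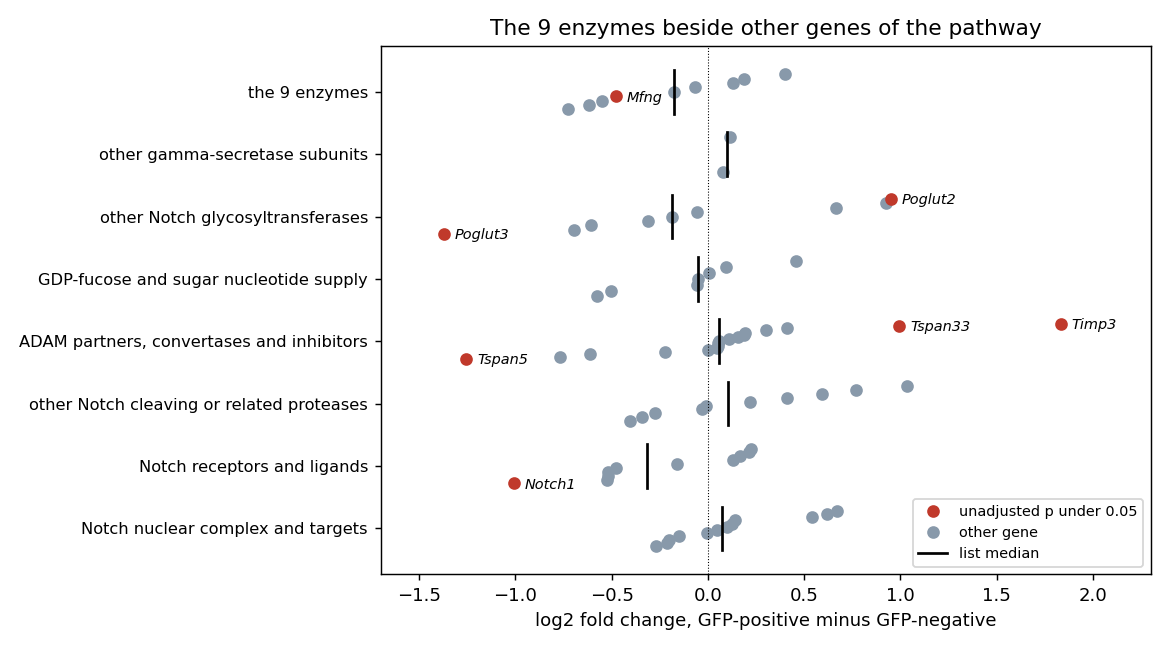
Log2 fold change (x axis, GFP-positive minus GFP-negative) of the 9 enzymes and of 67 other genes of the pathway, by group (y axis), with list medians as black lines and genes at an unadjusted p under 0.05 in red. The enzymes lie between -0.73 and 0.40, inside the range from -1.37 for Poglut3 to 1.84 for Timp3, and no gene passed the adjusted threshold.

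Marker genes of LSK cells and of other cell types were read from the same fit, in which 0 of 18194 genes passed. Over all genes, 5.51% were lower in every GFP-positive array and 5.89% higher. Kit and markers that divide LSK cells into subsets made a list of 5 measured genes, with a median log2 fold change of -0.63. Of these 3 lay lower in every GFP-positive array. Cd34, a progenitor surface sialomucin, was at -0.63 ± 0.17 (SE, limma adjusted p = 0.528). The cytokine receptor Flt3 was at -0.89 ± 0.38 (limma adjusted p = 0.759) and Cd48 at -0.77 ± 0.24 (limma adjusted p = 0.592). The gate's own Kit was at -0.43 ± 0.25 (limma adjusted p = 0.887), with overlapping groups. Slamf1 went the other way, also with overlap, at 1.41 ± 1.12 (limma adjusted p = 0.959). The summed intensity of 8 erythroid genes lay between 9.95 and 10.35 (log2 of the sum) in GFP-negative and between 12.34 and 12.80 in GFP-positive arrays, with 4 of the 8 genes higher in every GFP-positive array. For 10 macrophage genes the sums lay between 11.01 and 11.77 and between 11.70 and 12.76, with 5 of 10 higher throughout and 1, the receptor Csf1r, lower throughout. Sums over 10 B and plasma cell genes lay between 10.59 and 11.57 and between 12.06 and 13.37, with 4 of 10 higher throughout. The 9 mitotic genes lay between 11.76 and 13.13 and between 13.59 and 14.02, with 7 higher throughout. The 14 endothelial and stromal genes stood at 14.53 in GFP-positive replicate 1 and between 10.89 and 11.77 on the other 5 arrays, and all 14 were highest in that array. Of the 14, 2 were higher in every GFP-positive array: the chemokine Cxcl12, at 12.52, 9.27 and 8.33 on GFP-positive arrays 1, 2 and 3 against 5.34 to 5.52, and the matrix protein Sparc, at 12.32, 7.49 and 6.50 against 5.37 to 5.95. On GFP-positive array 1 Aph1a and Adam10 were lowest and Adam17, Ncstn, Timp3 and Adam12 were highest. Some defining markers stayed near background, with the haemoglobin gene Hba-a1 between 4.45 and 5.16 and the leptin receptor Lepr, of stromal cells, between 5.56 and 5.79. The part of these differences in the values of the 9 enzymes was not tested.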

How the data were processed

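Gene expression was measured on 6 Affymetrix arrays. Per the labels' protocols, 5 ng of total RNA was amplified and biotin-labelled as cDNA. The authors deposited 1 linear intensity per probe set and array for 45101 probe sets, and the submitters' processing notes name RMA without a version. RMA normalises by quantiles and shrinks differences near background, so a shift shared by most genes would be lost and fold changes of dim probe sets are likely understated. Log2 was taken with no pseudocount (lowest intensity 4.12). In the platform's annotation 34958 probe sets carried 1 symbol and were used, 932 carried several and 9211 were not listed. Groups were compared with limma 3.58.1 (lmFit, eBayes, R 4.3.3) over 18194 genes without covariates, with Benjamini-Hochberg adjustment and a threshold of 0.05. Probe sets were fitted apart in the same way, and the fit was run on simulated data. The differences planted there were all larger than those of the 9 enzymes, so that run does not bear on them. Named are all 9 enzymes, Hes1, of each other list of the pathway the genes at an unadjusted p under 0.05 or else the one of smallest p, the 3 genes of highest Pearson r with the member of smallest p, and marker genes set beside a result. Members and lists were chosen with earlier results of these data known. The alternatives covered averaged probe sets, a minimum mean level (40th or 60th percentile), normalisation, variance priors, array weights, replicate number, sex, males alone and omission of each array. Plots came from matplotlib 3.10.9 under Python 3.11.15.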

Additional observations from a re-analysis of the deposited data

How the results depend on the processing

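In every alternative 0 of the 9 enzymes passed by limma (lowest adjusted p = 0.546), and at an unadjusted p under 0.05 the reported fit had 1. Over all genes 1 passed with a filter at the 40th percentile and 2 at the 60th, and 0 to 5 with 1 array omitted, the 5 without GFP-positive replicate 3. The number of enzymes whose groups did not overlap was 1 as reported, where 11.4% of all genes did not overlap. It was 2 with probe sets averaged (Mfng and Pofut1), 3 in males alone and 1 to 3 with 1 array omitted. For these settings the share over all genes was not taken, and smaller groups separate more easily. Without GFP-negative replicate 1, and in males alone, the 3 were Mfng, Pofut1 and Psen2. Without GFP-positive replicate 3 they were Mfng, Adam10 and, higher, Adam17. The median log2 fold change was -0.019 in males alone and -0.24 to -0.048 with 1 array omitted. Signs turned for Adam10 with probe sets averaged (0.064) and for Rfng with array weights (-0.21). With 1 array omitted Rfng ranged from -0.17 to 0.66, Lfng from -0.36 to 0.047, Ncstn from -0.010 to 0.37 and Aph1a from -1.10 to 0.10. The replicate numbers were shared between groups, but deviations of same-numbered arrays correlated at only 0.12, 0.05 and 0.09, each being the highest for its array. With the replicate number as a block the count of enzymes called stayed at 0, Mfng had an unadjusted p of 0.077 and Psen2 of 0.028 (adjusted p = 0.576). The 3 arrays per group limit the precision, and Psen2 dropped out under the filter at the 60th percentile.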
